A study of Mus musculus with 2 samples.

Results

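Border-associated macrophages (BAMs) made up 134 of the 12262 barcodes that held at least 300 detected genes in 2 single-cell RNA-seq libraries of adult mouse striatum, and 134 of the 12415 deposited barcodes. A barcode stands for one captured cell, and a UMI (unique molecular identifier) for one captured RNA molecule. BAMs were chosen by measured values: a barcode was taken as a BAM when it carried 1 or more UMIs of at least 3 of 6 markers, namely Mrc1, Pf4, F13a1, Ms4a7, Cbr2 and Cd163. The levels of these 6 genes are therefore given as a description and were not tested.

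The libraries are replicates 1 and 2 of a single condition, whole striatum of untreated mice, called library 1 and library 2 here. The labels give an age of 8 to 10 weeks, a strain tag of C57/Bl6J and, in the protocol text, C57BL/6NTac. The study's methods describe male mice of a slightly younger age, and no source used here says which mice went into which library. Tissue was digested with pronase, filtered, freed of myelin and debris and labelled glia enriched, so that shares of barcodes are shares of what survived that preparation and not of the tissue. The 6978 barcodes of library 1 summed to 44597660 UMIs (median 3852) and the 5437 of library 2 to 37982720 (median 5375). The protocol names 2 versions of the 3′ kit without saying which library used which. There were 9 barcode sequences found in both libraries, 1 of them of a BAM.

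BAMs are the resident macrophages of the brain's borders, where they sit around blood vessels, in the meninges and in the choroid plexus, while microglia populate the parenchyma. They are known for the mannose receptor CD206, encoded by Mrc1, for scavenger receptors that take up material from the perivascular fluid, and for handling of iron, lipids and antigens. One subset in the brain carries the hyaluronan receptor Lyve1 and another carries MHC class II, the molecules that present peptides to helper T cells. Both BAMs and microglia depend on the receptor for colony-stimulating factor 1 and on the transcription factor PU.1, whose DNA motif holds the letters GAGGAA.

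Promoters of these genes were read for that motif core, since the 6 rule markers and the leading BAM genes described further on were high together. Of those 16 genes, 13 had a promoter in the RefSeq table of build GRCm38.p6, and in 4 of them the letters GAGGAA, or TTCCTC on the other strand, lay within the 100 bases before the transcription start. Their upstream stretches, cut where an annotated gene begins, are printed 5′ to 3′ on the strand of the gene, with the matching letters in capitals. They come from chr2:14229314-14229391 (plus strand), chr5:90772335-90772434 (plus strand), chr13:37050245-37050344 (minus strand) and chrX:96239826-96239925 (plus strand), in that order.
Mrc1: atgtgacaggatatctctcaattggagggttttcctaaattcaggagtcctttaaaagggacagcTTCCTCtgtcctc
Pf4: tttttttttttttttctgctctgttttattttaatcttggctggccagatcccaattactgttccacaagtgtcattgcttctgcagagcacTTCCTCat
F13a1: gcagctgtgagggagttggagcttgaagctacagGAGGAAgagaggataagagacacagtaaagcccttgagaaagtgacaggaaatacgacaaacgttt
F630028O10Rik: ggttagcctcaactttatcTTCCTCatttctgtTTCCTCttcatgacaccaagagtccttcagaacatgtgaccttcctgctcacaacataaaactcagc

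Counted from the RefSeq start, the match lay 35 bases upstream in Mrc1, 8 in Pf4 and 66 in F13a1, and F630028O10Rik held 2 matches, the first 81 bases upstream. In Mrc1 the RefSeq start lies inside the gene as GENCODE annotates it, so the printed stretch ends before that start. Over the 250 bases before each start, the letters occurred on either strand in 7 of 16 promoters (43.8%) of the rule markers and leading genes, in 45 of 172 promoters (26.2%) of the genes higher in BAMs than in every other class, and in 7639 of 32851 promoters (23.3%) in the table. TGCTGA, the core of the motif of MAF factors, occurred on either strand in 25% of the 16 promoters, 19.2% of the 172 and 16.1% of all, and the TATA box letters TATAAA in 12.5%, 12.2% and 12.4%. Among promoters of the genes tested the shares were 22.5% for GAGGAA, 13% for TGCTGA and 6.57% for TATAAA. A match describes these letters only, and no binding was measured in these libraries.

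Of the 134 BAMs, 85 were in library 1 and 49 in library 2. They were 1.23% of the barcodes of library 1 (exact binomial 95% interval 0.985 to 1.52) and 0.913% of those of library 2 (0.677 to 1.21), a mean of 1.07% ± 0.225 (SD, n = 2). The intervals overlapped. BAMs had a median of 7822 UMIs and 2765 detected genes in library 1 and of 6182 UMIs and 2221 genes in library 2, with 3.81% and 4.96% of their UMIs from mitochondrial genes. Together the BAMs held 647990 UMIs in library 1 and 325542 in library 2, and levels are given as CPM, the UMIs of a gene summed over the cells of a class per 1000000 UMIs of that class. UMIs of 3′ libraries are counted per gene and not per length, so levels are compared between classes and not between genes.

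Most BAMs carried more than the 3 markers asked for. All 6 were found in 63 BAMs, 5 in 44, 4 in 11 and exactly 3 in 16, while 22 barcodes just outside the rule carried 2 and 405 carried 1. The 16 barcodes with exactly 3 markers were mostly shallow, with a median of 1483.5 UMIs and 9.5 UMIs of the 6 markers. Some were deep, at up to 10966 UMIs. The 22 barcodes with exactly 2 had a median of 6366.5 UMIs but 3 UMIs of the markers. Marker UMIs are what the rule counts, so this difference is fixed by it. No barcode among the 80 and 73 with under 300 detected genes carried 3 of the markers.

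**Figure D1:**
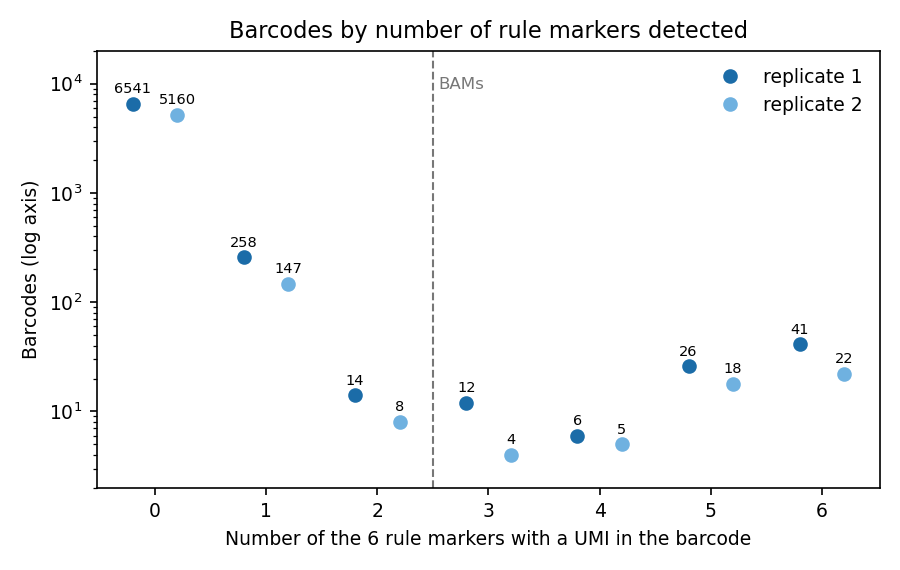
Number of barcodes (log axis) by how many of the 6 rule markers had a UMI, in replicate 1 (dark) and replicate 2 (light), with the number printed above each point and a dashed line at the threshold of 3. The counts fall from 6541 and 5160 barcodes with none to 12 and 4 with 3. In replicate 1 they fall further, to 6 with 4 markers. They then rise to 41 and 22 with all 6.

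Among the rule markers, Mrc1 (chromosome 2, 14229392 to 14332057, GRCm38) stood at 2728 CPM in library 1 and 3348 CPM in library 2, and had a UMI in 98.5% of BAMs. Pf4 (chromosome 5, 90772435 to 90773383), which encodes the chemokine platelet factor 4, stood at 3124 and 4215 CPM in 97.8%. F13a1 (chromosome 13, 36867178 to 37050244), the A subunit of coagulation factor XIII, stood at 1438 and 1198 CPM in 91.8%. These 3 genes were in nearly every BAM.

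Ms4a7 (chromosome 19, 11321039 to 11336146), a membrane protein of the MS4A family, stood at 880 and 974 CPM in 85.1% of BAMs. Cbr2 (chromosome 11, 120729489 to 120732114), a carbonyl reductase, stood at 846 and 624 CPM in 82.1%. Cd163 (chromosome 6, 124304656 to 124330527), the scavenger receptor for haemoglobin bound to haptoglobin, stood at 640 and 412 CPM and was the least widespread, in 59.7%. For comparison, Mrc1 in barcodes of the microglia class was at 22.3 and 11.2 CPM, with a UMI in 7.25% of them.

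The name of the class was compared with genes that the rule did not use, in lists chosen with earlier results of these data known. Barcodes of 8 other classes were picked the same way, by at least 3 of 6 markers of their own, and kept when they passed no other gate. Picking BAMs and microglia by markers favours the direction of genes that go with those markers. The lists are therefore a description and not an independent test of the name. Microglia numbered 711 in library 1 and 917 in library 2, with medians of 6917 and 5490 UMIs. Counts summed per library and class were fitted in edgeR (quasi-likelihood test), library being a block, and p-values were adjusted by Benjamini and Hochberg over 14435 genes. The marker genes of all 9 gates were left out of the counts of called genes.

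Of a list of 30 further BAM markers, 28 had enough UMIs to be tested, and 27 of these were higher in BAMs than in microglia and none lower. Over all genes tested 1261 were higher, or 8.74%, and 2072 were lower, or 14.4%. The median log2 fold change of the list was 5.90, against −0.22 over all genes. Among the 28, 25 were also higher than in each of the other 7 classes, which held for 202 of all genes, or 1.4%. The remaining tested gene, Hpgd, did not pass. When the BAMs were limited to the 59 that passed no gate but their own, 25 of 26 tested were higher and 0 lower. The summed level of the list was 70606 and 80475 CPM in BAMs and 3766 and 3736 CPM in microglia, and its most abundant gene was Apoe.

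The share of calls that were higher depended on the scaling. It was 37.8% with edgeR's TMM factors, 62.6% with library sizes alone, where the median over all genes was 0.03, and 66.5% in DESeq2. Directions of genes with small changes are therefore read against the median of −0.22. Counts in the gene lists below are read against the 8.74% higher and 14.4% lower over all genes tested. With library sizes alone 1744 of 14435 genes were higher and 1043 lower. Without BAMs of another gate 500 of 14487 were higher and 1054 lower.

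Lyve1 (chromosome 7, 110850607 to 110863239), the hyaluronan receptor of perivascular macrophages, was at 623 CPM in library 1 and 347 CPM in library 2. It had a UMI in 51.5% of BAMs (exact binomial 95% interval 42.7 to 60.2) and in 0 of 1628 microglia, which allows a share with a UMI of up to 0.184%, a limit on detection at this depth and not on expression. Against a floor of 3 UMIs per library its level was at least 943-fold higher in library 1 and at least 567-fold higher in library 2 (adjusted p = 7.0e-09, edgeR). Outside the BAMs, the 8 classes held a single UMI of Lyve1, in a barcode of the neuron class. In DESeq2, with a fold change of the same sign, the adjusted p was 0.116.

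Other receptors for sugars or pathogens were likewise found in BAMs and at very low levels or not at all in microglia. Clec10a (chromosome 11, 70156197 to 70170834), a galactose-type lectin, was at 438 and 568 CPM in 65.7% of BAMs, at least 663-fold and 929-fold above microglia. Cd209f (chromosome 8, 4102787 to 4105835), a relative of DC-SIGN, was at 406 and 369 CPM in 25.4% of BAMs, at least 614-fold and 602-fold higher. Clec4n (chromosome 6, 123229843 to 123247021), which encodes dectin-2, was at 181 and 295 CPM in 56.7%, at least 273-fold and 482-fold higher. None of them had a UMI in microglia of either library. Mgl2, a close homologue of Clec10a with which reads could be shared, was at 394 and 501 CPM against 0.441 and 0.204 CPM in microglia. DESeq2 did not call Clec4n (adjusted p = 0.151) or Mgl2 (0.193).

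Wfdc17 led the genes that were higher than in every class. This small secreted protein with a whey acidic protein domain (chromosome 11, 83703991 to 83706268) was at 974 and 2230 CPM in BAMs, against 0.661 and 2.86 CPM in microglia, and its smallest log2 fold change over the 8 classes was 8.97. Folr2 (chromosome 7, 101839988 to 101857194), a folate receptor of resident macrophages, was at 319 and 387 CPM against 0.882 and 0.204 CPM in microglia. Cybb (chromosome X, 9435252 to 9487771), the catalytic subunit of the phagocyte NADPH oxidase, was at 381 and 427 CPM in 79.9% of BAMs, against 0 and 1.84 CPM in microglia. F630028O10Rik, a gene without a name, was at 119 and 175 CPM against 0.22 and 0 CPM. In all 4 genes both libraries of BAMs lay above both libraries of every other class, and DESeq2 called all of them but F630028O10Rik (adjusted p = 0.262).

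**Figure D2:**
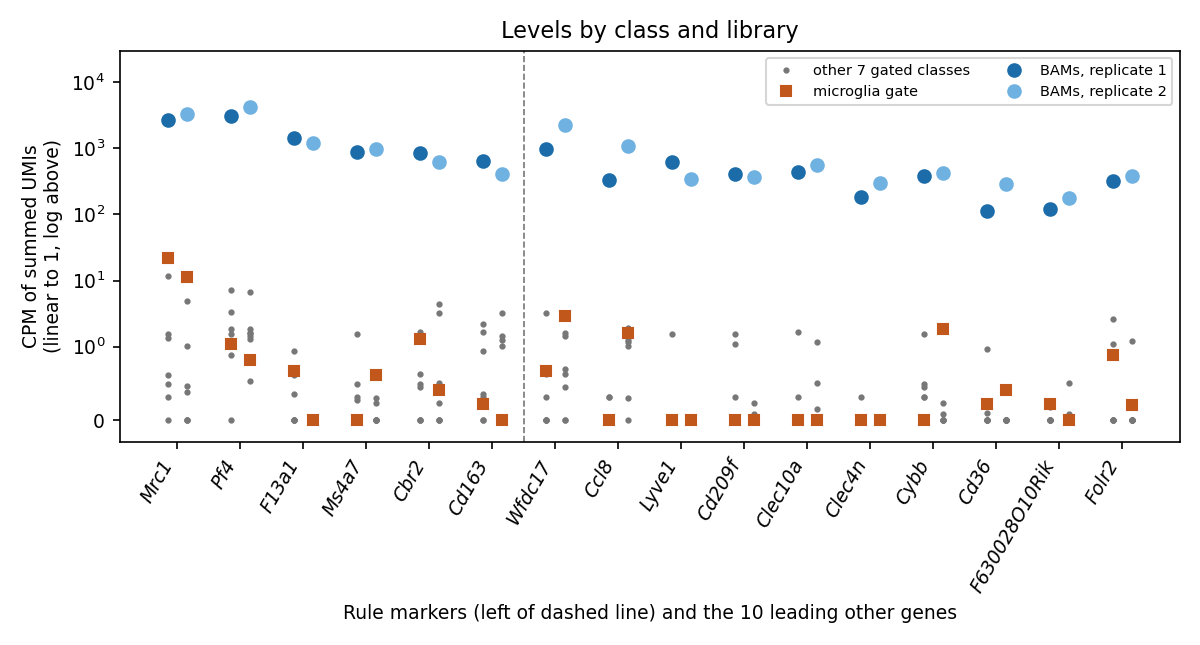
CPM of summed UMIs (linear to 1, log above) of the 6 rule markers, left of the dashed line, and of the 10 leading other genes, in the BAMs of replicates 1 and 2 (blue circles), the microglia gate (orange squares) and the other 7 classes (grey dots), each library drawn once. Wfdc17 stands at 974 and 2230 CPM in BAMs and at 0.661 and 2.86 CPM in microglia, and the BAM points lie above all others for every gene shown.

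Some abundant products of resident macrophages were shared in part with other cells. Apoe (chromosome 7, 19696109 to 19699188), the main lipid carrier of the brain, was at 50030 and 57289 CPM in BAMs and at 1620 and 1451 CPM in microglia, a log2 fold change of 4.84 ± 0.38 (SE, adjusted p = 3.9e-08, edgeR). Astrocytes, the other main source, were at 30474 and 27946 CPM, and the difference from them was 0.94 (adjusted p = 0.0262, edgeR). Lyz2, which encodes lysozyme, was at 7523 and 8755 CPM against 289 and 342 CPM in microglia, a log2 fold change of 4.37 ± 0.43 (adjusted p = 7.1e-07, edgeR). Both genes were higher in BAMs than in every other class.

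The other side of this comparison was the microglial programme, to which the same limit applies. Of 20 microglia markers outside the gate, 19 were tested, 18 were lower in BAMs and none higher, with a median log2 fold change of −4.12. In the 59 BAMs that passed no other gate 17 were lower. The 1 that did not pass was Jun, an immediate early gene. Selplg, the ligand of P-selectin, fell by 5.05 on the log2 scale. The fructose transporter Slc2a5 was at 3.09 and 9.22 CPM against 358 and 342 CPM, and the receptor Gpr84, with 1 UMI in all BAMs, was at 0 and 3.07 CPM against 54 and 66.1 CPM. Cst3, the secreted protease inhibitor cystatin C and the most abundant gene of this list, was at 9298 and 11839 CPM against 81480 and 77349 CPM.

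Many BAMs also carried microglial transcripts at a low level. The microglia gate was passed by 53 of the 134, the oligodendrocyte gate by 27, the astrocyte gate by 10, and 59 passed no other gate. BAMs that passed the microglia gate were deeper, with a median of 9415 UMIs against 4313 UMIs in those that passed no other gate. Scrublet, a caller of barcodes that hold more than one cell, marked 2 BAMs (1.49%), against 245 of 12262 barcodes (2.0%). The order differed by library, at 2.35% of BAMs against 1.38% of barcodes in library 1 and 0% against 2.80% in library 2.

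In the BAMs that passed the microglia gate, P2ry12, the purinergic receptor of microglia, was at 168 and 436 CPM, Tmem119 at 62.4 and 75.9 CPM and Sall1, a transcription factor of microglial identity, at 27.1 and 31.6 CPM. Microglia held 2487 and 3180 CPM, 1633 and 1274 CPM, and 332 and 391 CPM of these genes. In BAMs that did not pass the gate P2ry12 was at 68.0 and 107 CPM, and Tmem119 and Sall1 were each at 7.16 and 0 CPM. Microglia were picked, and the BAMs divided, by these genes, so the order of the 3 groups follows from the choice and the values are a description. The part of RNA shared between droplets or of merged cells in these levels was not tested.

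**Figure D3:**
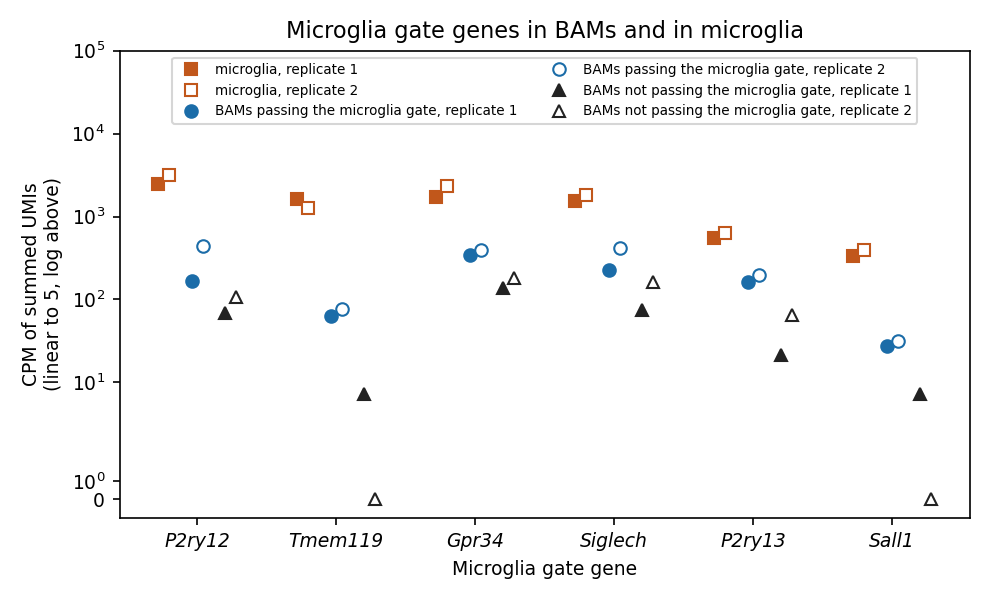
CPM of summed UMIs (linear to 5, log above) of the 6 microglia gate genes in microglia (orange squares), in BAMs that passed the microglia gate (blue circles) and in BAMs that did not (black triangles), with replicate 1 filled and replicate 2 open. P2ry12 stands at 2487 and 3180 CPM in microglia, 168 and 436 CPM in BAMs that passed the gate and 68.0 and 107 CPM in those that did not, an order that the gate itself sets.

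The microglia compared here passed no other class's gate, whereas the BAMs could. When only the 59 BAMs that passed no other gate were kept, 500 genes were higher and 1054 lower than in microglia, and 157 were higher than in every class, of which 147 were among the 202. Of the 1261 higher genes, 459 were higher again and 206 changed sign. That smaller comparison is given beside the counts of the main gene lists.

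Genes that BAMs and microglia share as macrophages were the next group. Of 20 pan-macrophage genes 13 were lower in BAMs, none higher and 7 did not pass, with a median log2 fold change of −0.86. With library sizes alone 8 were lower, and in BAMs without another gate 9 were lower. Csf1r, the receptor for colony-stimulating factor 1, was at 1730 and 1926 CPM against 3865 and 4017 CPM. Itgam, the integrin CD11b, fell by 3.02 and Trem2, a lipid-sensing receptor of microglia, by 2.28 on the log2 scale. C1qa, the complement component with the most UMIs in BAMs among these genes, was at 7287 and 7609 CPM against 10626 and 9995 CPM, with an adjusted p of 0.053 (edgeR). It passed as lower in 5 alternatives, among them thinning to 2000 UMIs (adjusted p = 0.0065) and at least 2 rule markers (0.03). Cx3cr1, the fractalkine receptor, was at 543 and 697 CPM against 3940 and 4129 CPM.

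Transcription factors came next. Of 26 tested, 5 were higher and 11 lower, with a median of −0.56, but with library sizes alone 7 were higher and 6 lower. Without BAMs of another gate 3 were higher and 8 lower. Maf, a factor of tissue macrophages, was at 1773 and 1659 CPM against 696 and 782 CPM, a log2 fold change of 0.90 ± 0.26 (adjusted p = 0.0168, edgeR). This call was lost without the library block (adjusted p = 0.0781, edgeR), with at least 2 rule markers (0.0731) and in DESeq2 (0.051). The Krüppel-like factor Klf4 was at 127 and 49.1 CPM against 9.70 and 9.99 CPM, and rose by 2.91 on the log2 scale. Sall3, a relative of Sall1, fell by 3.96, and Smad3, a mediator of TGF-β signals, was lower as well, at 6.17 and 3.07 CPM.

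**Figure D4:**
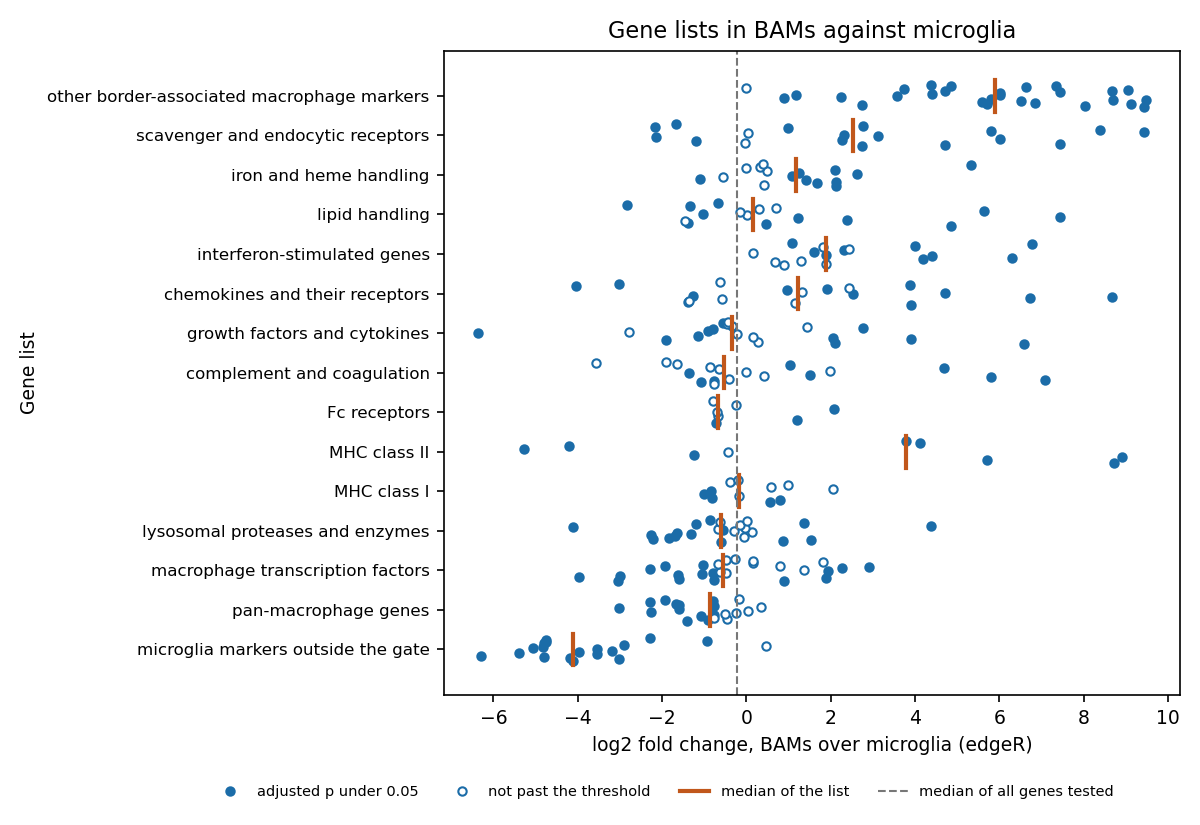
log2 fold change of BAMs over microglia for each tested gene (circles, filled where the adjusted p of edgeR was under 0.05) in 15 gene lists, with the list's median as an orange bar and the median of all genes, −0.22, as a dashed line. The median runs from 5.90 for further BAM markers to −4.12 for microglia markers outside the gate.

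Scavenger and endocytic receptors were among the lists most raised in BAMs. Of 18 tested, 12 were higher and 4 lower, with a median of 2.54, and 11 and 4 without BAMs of another gate. Several of the 12, among them Lyve1, Cd36 and Stab1, are also on the list of further BAM markers. So are Maf, Apoe, Ccl8, Ccl24 and Lyz2 of other lists, so the lists are not separate results. Stab1, which clears modified lipoproteins and matrix fragments, was at 1642 and 1628 CPM against 234 and 164 CPM, a log2 fold change of 2.75 ± 0.22 (adjusted p = 4.1e-08, edgeR). Cd36 (chromosome 5, 17781690 to 17888801), a receptor for oxidised lipids, was at 113 and 289 CPM in 38.8% of BAMs, against 0.22 and 0.408 CPM, and rose by 7.45. The receptors that fell were the integrin Itgb2, by 2.17, the lipoprotein receptor Lrp1, by 2.14, the receptor Mertk, which binds dying cells, by 1.67, and Scarb2. Uptake receptors thus moved in both directions, although DESeq2 did not call Cd36 (adjusted p = 0.318) or Mertk (0.0823).

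Iron and haem handling also leaned to the BAMs, with 9 of 16 tested genes higher, 1 lower and a median of 1.17. In BAMs without another gate 6 were higher and 1 lower. Hmox1, the enzyme that opens the haem ring, was at 153 and 141 CPM against 34.4 and 19.6 CPM, a log2 fold change of 2.13 ± 0.25 (adjusted p = 5.8e-06, edgeR). Blvrb, a reductase of haem breakdown products, was at 622 and 624 CPM against 78.7 and 85.5 CPM. Both were higher than in every other class. Cp, the iron oxidase ceruloplasmin, was at 201 and 233 CPM against 3.53 and 4.08 CPM in microglia, but mural cells reached 355 CPM. Fth1, the heavy chain of the iron store ferritin, was at 10884 and 10429 CPM against 2844 and 2546 CPM. The exception was Slc11a1, a metal transporter of phagosomes, at 55.6 and 108 CPM against 116 and 153 CPM, with a change of −1.10 (adjusted p = 0.0037, edgeR) that DESeq2 did not call (0.275).

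Lipid handling had no common direction. Of 16 tested genes 6 were higher and 5 lower, with a median of 0.16, and 4 and 4 without BAMs of another gate. Besides Apoe and Cd36, Pltp, which transfers phospholipids between lipoproteins, rose by 5.63, from 9.04 and 6.53 CPM in microglia to 634 and 393 CPM, although endothelial cells stood higher, at 2941 and 3215 CPM. Ptgs1, a cyclooxygenase, fell by 2.84 and the prostaglandin D synthase Hpgds fell by 1.33, while the lipid exporter Abcg1 was at 40.1 and 49.1 CPM against 68.5 and 128 CPM.

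Some chemokines were at different levels in the BAMs of the 2 libraries. Of 18 tested chemokines and receptors 8 were higher than in microglia and 3 lower, with a median of 1.23, or 2.12 when the 2 genes without a UMI in one class were set to their bounds. Leaving out BAMs of another gate, 7 were higher and 2 lower. Ccl8 (chromosome 11, 82115185 to 82116799), a chemokine that attracts monocytes and T cells, was at 335 CPM in library 1 and 1087 CPM in library 2, against 0 and 1.63 CPM in microglia, and its smallest log2 fold change over the 8 classes was 8.66. It had a UMI in 28.2% of BAMs in library 1 and 46.9% in library 2, and in each library 1 cell held much of its UMIs, 41.9% and 41.0%. Ccl7, a close relative, was at 37.0 and 163 CPM against 0.22 and 0 CPM, and was not called by DESeq2 (adjusted p = 0.29). With 1 library on each side, neither difference between libraries could be tested.

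Ccl24, an eotaxin, was by contrast level between the libraries, at 335 and 319 CPM against 10.8 and 8.36 CPM in microglia. Its rise of 4.71 ± 0.29 (adjusted p = 1.8e-07, edgeR) did not pass in DESeq2, where the adjusted p was 0.639. The chemokine Ccl9 fell by 1.27, a call lost without BAMs of another gate (adjusted p = 0.142, edgeR). Among the receptors Cx3cr1 was lower and Cxcr4 and Ccr1 were higher.

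Secreted growth factors divided 5 higher to 6 lower among 19 tested, with a median of −0.35, and 3 to 4 without BAMs of another gate. With library sizes alone 5 were higher and 3 lower. Igf1, insulin-like growth factor 1, was at 275 and 384 CPM in BAMs and 1.76 and 2.65 CPM in microglia, a log2 fold change of 6.57 ± 0.46 (adjusted p = 9.0e-09, edgeR), and was higher than in every class. Pdgfc, a platelet-derived growth factor, was at 17.0 and 24.6 CPM against 0.22 and 0.816 CPM. Its relative Pdgfb fell by 1.91, and Tgfb1 fell by 1.16. Il1a, which encodes interleukin 1α, had no UMI in 134 BAMs, which allows a share with a UMI of up to 2.24% and does not limit the share of cells that express it, and was at 41.2 and 54 CPM in microglia. Spp1, which encodes osteopontin, was at 75.6 and 12.3 CPM against 4.85 and 5.10 CPM, but 42 of its 53 UMIs came from 1 cell, and without BAMs of another gate its adjusted p was 0.498 (edgeR).

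In the complement and coagulation list 5 of 18 genes were higher and 3 lower, with a median of −0.53, or −0.21 with genes at 0 at their bounds. Over all genes tested 8.74% were higher and 14.4% lower, so the number of lower genes was near that share. With library sizes alone 5 were higher and 0 lower, and without BAMs of another gate 4 of 19 were higher and 0 lower. C4b, a component of the classical pathway, was at 301 and 516 CPM against 2.42 and 1.22 CPM in microglia, a log2 fold change of 7.08 ± 0.32 (adjusted p = 2.8e-11, edgeR), and properdin, encoded by Cfp, was at 92.6 and 104 CPM against 0.882 and 0.816 CPM. Thbd, the anticoagulant thrombomodulin, rose by 4.70. C1qb and C1qc fell by 1.08 and 0.77 and C5ar2 by 1.36, calls lost in both of these settings. Of 7 Fc receptors, which bind antibodies, Fcgr2b (inhibitory) and Fcgrt (the neonatal receptor) were higher, by 1.20 and 2.08 on the log2 scale, and Fcgr1 was lower, by 0.73. Without BAMs of another gate 2 were higher and 0 lower. In DESeq2 neither Fcgr2b (adjusted p = 0.32) nor Fcgr1 (0.656) was called. The shared signalling chain Fcer1g was at 2869 and 2934 CPM against 2821 and 2744 CPM.

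Lysosomal genes leaned to microglia, with 4 of 23 higher in BAMs, 11 lower and a median of −0.60, and 4 higher and 10 lower without BAMs of another gate. Besides Lyz2, the cathepsin Ctsc was at 1221 and 1195 CPM against 309 and 365 CPM and was higher than in every class, and Cd63, a membrane protein of late endosomes, rose by 1.37. Ctss was at 1446 and 1471 CPM against 5636 and 5564 CPM, and Ctsd at 1932 and 1640 CPM against 7290 and 6034 CPM, falls of 2.26 and 2.21 on the log2 scale. Cathepsins thus differed in direction from one another.

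Interferon-stimulated genes were higher in 9 of 16 cases and lower in none, with a median of 1.89, and in 6 of 16 without BAMs of another gate. Ifitm2 and Ifitm3, which restrict viral entry, were at 582 and 670 CPM and at 708 and 728 CPM, against 4.63 and 6.94 CPM and 26.7 and 26.5 CPM in microglia. Mural cells held Ifitm2 at up to 711 CPM, from which BAMs did not differ past the threshold (adjusted p = 0.882, edgeR). Ifi207 was at 207 and 197 CPM against 0.441 and 1.43 CPM, and Mndal, a gene of the same cluster of similar sequences, was at 148 and 166 CPM against 0 in both libraries. How reads were divided among the members of that cluster is uncertain, and DESeq2 did not call Ifi207 (adjusted p = 0.433).

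MHC class II set a few BAMs apart from the rest. Of 9 tested genes of the list 5 were higher than in microglia and 3 lower, with a median of 3.77, or 3.33 with the gene at 0 at its bound. Without BAMs of another gate 4 were higher and 1 lower, with a median of 0.50. H2-Aa (chromosome 17, 34282744 to 34287823), the α chain of I-A, was at 659 and 627 CPM against 1.32 and 0.612 CPM, a log2 fold change of 8.71 ± 1.09 (adjusted p = 1.3e-05, edgeR). H2-Ab1, its β chain, was at 718 and 550 CPM, H2-Eb1 at 776 and 571 CPM, and Cd74, the invariant chain, at 1765 and 1428 CPM, against 8.15 and 9.99, 1.10 and 0.408, and 38.8 and 87.1 CPM.

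These levels rested on a small number of cells. H2-Aa had a UMI in 10 of 134 BAMs, 5 in each library, or 7.46% (exact binomial 95% interval 3.64 to 13.3), against 0.491% of microglia. H2-Ab1 was found in 7.46%, H2-Eb1 in 9.70% and Cd74 in 30.6% of BAMs, against 11.2% of microglia for Cd74. The 10 BAMs with H2-Aa held 96.4% of the class II UMIs of all BAMs, 96.8% in library 1 and 95.4% in library 2. Their summed class II level was 49405 and 25260 CPM, while that of the other 124, chosen for having no UMI of one gene of the list, was 146 and 180 CPM. Microglia, not divided in that way, were at 401 and 529 CPM. The accessory genes H2-Oa and H2-Ob, which temper peptide loading, were lower, each with no UMI in library 1 and 1 UMI in library 2, against 54.2 and 51.2 CPM and 24.0 and 26.7 CPM in microglia. H2-Ob was lost without BAMs of another gate (adjusted p = 0.123, edgeR). H2-DMa fell by 1.23, a call lost in that setting (0.186), with library sizes alone (0.0945) and in DESeq2 (0.286).

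The BAMs with H2-Aa also differed in other genes, which are given as a description because the cells were split by a measured gene. Their summed level of the 6 rule markers was 4706 and 9057 CPM, against 10092 and 11022 CPM in the BAMs without it. In library 1 the sum covers unlike cells. The 3 BAMs with the most class II there, at 61977, 71129 and 103335 CPM, each carried exactly 3 rule markers, at only 578 to 920 CPM, with Ccr2 and without Cbr2 or Cd163. The other 2, at 1267 and 6166 CPM of class II, held all 6 rule markers at 8702 and 13991 CPM. Lyve1 was at 191 and 287 CPM against 662 and 356 CPM, Folr2 at 19.1 and 119 CPM against 346 and 427 CPM, and Ccl8 was at 0 in both libraries against 364 and 1248 CPM. Apoe, at 32143 and 44235 CPM against 51607 and 59215 CPM, was lower, and Lyz2, at 10384 and 8866 CPM against 7271 and 8738 CPM, was not. Ccr2, the receptor that brings monocytes out of the marrow, had all of its UMIs in BAMs with H2-Aa, at 705 and 71.7 CPM.

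Part of this group sat at the edge of the rule. Of the 16 BAMs with exactly 3 rule markers 4 had H2-Aa, and these 16 held 73.1% of the class II UMIs, 94.5% in library 1 and 21.4% in library 2. Among the 118 BAMs with 4 to 6 rule markers 6 had H2-Aa, and the summed class II level was 246 CPM in library 1 and 2764 CPM in library 2. In these 118 BAMs H2-Aa was at 21.8 CPM in library 1 and 485 CPM in library 2, down from 659 and 627 CPM, and the class II sum of library 1 lay below the 401 CPM of microglia. With at least 4 rule markers required, H2-Aa, H2-Ab1 and H2-Eb1 passed with smaller fold changes, and Cd74 no longer passed, with a log2 fold change of 2.89 and an adjusted p of 0.0598 (edgeR).

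Lyve1 and H2-Aa were also counted in each BAM. Of 134 BAMs 67 had Lyve1 alone, 8 had H2-Aa alone, 2 had both and 57 had neither. When 114 BAMs were thinned to 2000 UMIs each and shallower ones left out, the numbers were 53, 8, 0 and 53. BAMs with Lyve1 alone had a median of 6 rule markers and 8092 UMIs, those with H2-Aa alone 3.5 rule markers and 9967.5 UMIs, and those with neither 5 rule markers and 4756 UMIs, so that absence of both went with fewer UMIs. Across the BAMs of each library Spearman's rho of Lyve1 and Folr2 per barcode was 0.455 (n = 85) and 0.505 (n = 49), and of Lyve1 and the class II sum −0.0253 and 0.0349. All points of a library share its preparation and are not replicates. Their depth differed, from 636 to 29089 UMIs in library 1 and from 774 to 27899 UMIs in library 2. The part of depth in these values was not tested.

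**Figure D5:**
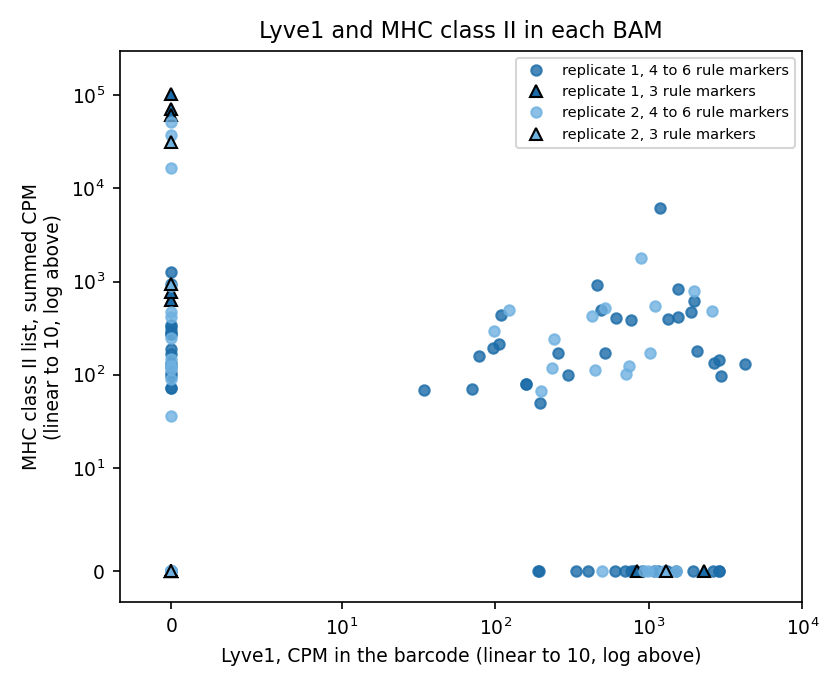
Summed CPM of the MHC class II list against CPM of Lyve1 in each of the 134 BAMs (both axes linear to 10, log above), in replicate 1 (dark) and replicate 2 (light), with triangles for barcodes with exactly 3 rule markers. The BAM with the highest class II value stands at 103335 CPM and at 0 on the Lyve1 axis. The 10 BAMs with H2-Aa run from 170 to 103335 CPM of class II, 2 of them with Lyve1.

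MHC class I, found on most cells, divided differently under the scalings. Of 11 tested genes 2 were higher and 3 lower, with a median of −0.18, but with library sizes alone 3 were higher and 0 lower, with a median of 0.12. Without BAMs of another gate 2 of 10 were higher and 2 lower. H2-D1 was at 940 and 1220 CPM against 457 and 544 CPM, H2-K1 at 599 and 630 CPM against 292 and 388 CPM, and B2m, the shared light chain, at 1139 and 1259 CPM against 1663 and 1730 CPM. The call of B2m was lost with library sizes alone (adjusted p = 0.115, edgeR) and in DESeq2 (0.124). H2-D1 and H2-K1 are similar in sequence, and their separate values are uncertain.

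Markers of other cells of blood and vessel walls were looked for in the BAMs. Of 10 monocyte markers 5 had no UMI in BAMs, among them Ly6c2, Plac8, Chil3 and Hp, and the summed level of the list was 316 CPM in library 1 and 12.3 CPM in library 2, against 36.8 and 27.9 CPM in microglia. Its most abundant gene was Ly6a, with 120 UMIs in 8 BAMs, all in library 1. Ccr2, also on this list, had 40 UMIs in 5 BAMs, all among the BAMs with H2-Aa, and did not pass. Of these UMIs 37 lay in 3 BAMs of library 1, the same 3 that had the most class II and few rule marker UMIs. Fn1 had 23 UMIs in 3 BAMs and Vcan 22 UMIs in 3 BAMs, 20 of them in 1 cell, and both had none in library 2. Fn1, Vcan and Ly6a passed as higher, and none of the 3 passed without BAMs of another gate. Neutrophil markers S100a8, S100a9 and Ly6g, the T and NK cell markers Cd3e, Cd3d and Nkg7 and the B cell markers Cd79a and Ms4a1 were at 0. Besides Mmp9, the neutrophil list held Csf3r, lower than in microglia, in 25 BAMs at 32.4 and 43.0 CPM against 153 and 192 CPM. Of the B cell list, Cd79b, in 21 BAMs at 24.7 and 24.6 CPM against 46.3 and 49.4 CPM, and Ighm passed as lower, and 0 of these 2 did without BAMs of another gate. Ighm was at 127 and 169 CPM against 186 and 236 CPM in microglia, and Ccl5 had UMIs in a single BAM.

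Dendritic cell markers Xcr1, Clec9a and Ccr7 were at 0, while Flt3 had 3 UMIs in 1 BAM of library 1 and Zbtb46 had 5 UMIs in 4 BAMs. Among the 3 tested, Cd209a and Kmo were higher, with Cd209a at 37.0 and 67.6 CPM in 8.96% of BAMs. DESeq2 did not call Cd209a (adjusted p = 0.341), and 1 cell held 77.3% of its UMIs in library 2. Perivascular fibroblast markers were higher in 6 of 7 tested, and in 5 of 6 without BAMs of another gate. Their most abundant gene, Dcn, which encodes the matrix protein decorin, was at 60.2 and 178 CPM, but in 11.9% of BAMs only, and in each library 1 cell held most of its UMIs, 76.9% and 77.6%. Hbb-bs, a haemoglobin chain and the most abundant erythroid gene, had 5037 of its 5083 UMIs in 1 BAM of library 1. Over both libraries it was found at low level in 28.4% of BAMs and 22.4% of microglia. The libraries differed, with a UMI in 35 of 85 BAMs in library 1 and 3 of 49 in library 2. The choroid plexus markers Ttr, Folr1 and Kl were at 0. Mmp9, a matrix protease on the neutrophil list, was found in 11 BAMs, at 50.9 and 39.9 CPM, and in no microglia, without a call in DESeq2 (adjusted p = 0.278).

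Genes that dissociation can induce and genes of cell division were looked at last. Of 17 immediate early genes 5 were higher and 2 lower than in microglia, with a median of 1.38, and 0 were higher and 1 lower without BAMs of another gate. Over all genes 8.74% were higher and 14.4% lower, or 500 and 1054 of 14487 without those BAMs. The numbers of lower genes were near these shares. Jund, the most abundant of them in BAMs, was at 349 and 384 CPM against 288 and 288 CPM, in 67.9% of BAMs (adjusted p = 0.9, edgeR). Fos was at 37.0 and 15.4 CPM against 0.882 and 1.84 CPM, in 8.96% of BAMs, higher by a call lost without BAMs of another gate (adjusted p = 0.128, edgeR), and Junb fell by 1.36. The study's methods say that actinomycin D was added before and during dissociation, to keep stress from changing transcription. Low levels of these genes are those of a preparation so treated. Whether dissociation contributed to the other differences was not tested. Of 14 cell cycle genes 1, Cenpf, passed as higher, which is near the share over all genes. Its call was lost without BAMs of another gate (adjusted p = 0.282, edgeR). Mki67, a marker of dividing cells, had 3 UMIs in 3 BAMs.

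Over all genes, the largest falls in BAMs included several transcripts of which BAMs held no UMI. Parvg, a focal adhesion protein of blood cells, was at 92.6 and 88.1 CPM in microglia, Spint1, a protease inhibitor, at 74.9 and 89.3 CPM, the interleukin 7 receptor Il7r at 73.0 and 49.2 CPM, and the potassium channel Kcnk12 at 45.4 and 60.6 CPM. The BAMs' floor of 3 UMIs corresponds to 4.63 CPM in library 1 and 9.22 CPM in library 2, so that smaller levels of these 4 genes cannot be told from 0, and DESeq2 did not call Il7r (adjusted p = 0.39). Gal3st4, a sulphotransferase, was at 1.54 and 3.07 CPM against 199 and 153 CPM.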

How the data were processed

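Raw UMI counts per gene and barcode were deposited by the authors for both libraries. The submitters' processing notes name Cell Ranger 4.0 and mm10, while the study's methods name another version. The study's removal of doublets and its annotation are not part of these counts. No sample column was left unused (0 columns).

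Barcodes with at least 300 detected genes were kept and gated by at least 3 of 6 markers per class, and a barcode of the other 8 classes passed its own gate only. Doublets were marked by Scrublet (scanpy 1.11.5, expected rate 6%) and kept, except in an alternative. UMIs were summed per library and class, and genes kept by filterByExpr were tested with edgeR 4.0.16 (TMM factors, quasi-likelihood test, prior count 2, Benjamini-Hochberg threshold 0.05) in R 4.3.3, with the library as a block because all classes of a library come from 1 suspension. The differences between libraries were compared across classes: the correlation of the BAM difference with that of another class ran from 0.0352 (neuron) to 0.227 (oligodendrocyte). The 54 gate genes were left out of counts of calls. DESeq2 1.42.0, other scalings, filters, gates, depths and libraries were tried as alternatives. Python 3.11.15, numpy 2.4.6, scipy 1.17.1, pandas 2.3.3 and matplotlib 3.10.9 were used. The fitting script was tested on simulated data with 1 common spread for all genes. It recovered 35% of 2-fold and 95% of 4-fold changes between BAMs and microglia, with 11 false calls among 14209 genes. A gene that did not pass can therefore still differ by about 2-fold.

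The study calls its replicates biological, but which animals each library holds is not given in the sources used here. With the library as a block, p-values of the main fit rest on how far differences between classes varied between these 2 libraries. That spread was estimated over all classes together and shared in part across genes. It is not a spread between known animals. Exact binomial intervals (95%) and floors of 3 counts cover counting error only. Fold changes of genes at 0 in one class depend on the prior count and are given as bounds. Gene positions are from GENCODE M21 (GRCm38), and promoters are from RefSeq (GRCm38.p6). Members and lists were chosen with earlier results of these data known. Genes named were the rule markers, up to 3 rises and 3 falls and the most abundant gene per list, the 10 largest rises and falls overall with a UMI in at least 20% of the higher class, and the 10 genes with the largest smallest fold change among those higher than in every class. Hpgd, Csf1r, Csf3r, Cd79b, Cxcr4, Ccr1, Scarb2, Kmo, Flt3, Zbtb46, Fn1, Vcan, Mki67, Ccr2, Sall1, P2ry12 and Tmem119 were named outside this rule after their values had been seen. Clec7a is listed among the scavenger receptors and was not analysed here. Some genes that this rule names are not reported here.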

Additional observations from a re-analysis of the deposited data

How the results depend on the processing

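The share of barcodes that met the rule was 0.482% when BAMs passing another gate were left out, and 0.913% to 1.23% when 1 library was left out. The 1261 genes higher than in microglia became 1971 in DESeq2, 500 without BAMs of another gate and 460 after thinning to 2000 UMIs. The 2072 lower genes became 993 in DESeq2, 1043 with library sizes alone, 1224 with at least 50 UMIs, 1361 with BAMs and microglia fitted alone, 1054 without BAMs of another gate, 952 after thinning, and 944 when microglia that pass another gate were kept, an alternative that was added once the data had been seen. The 202 genes higher than in every class became 125 after thinning, of which 118 were among the 202. The share of higher calls was 32.2% to 66.5% over these settings. Without the replicate block 1100 genes were higher, 1771 lower and 172 higher than in every class, and the block changed no count by more than 1.5 times. Without it the calls of C1qb (adjusted p = 0.245), C1qc (0.304), Cenpf (0.0718), Fcgr1 (0.111), Grn (0.107), H2-K1 (0.0538), Ly6a (0.0776) and Maf (0.0781) were lost in edgeR, and no other call of a named gene was.

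The 106 named genes gave 1682 values under the alternatives. Of these 1527 kept direction and side of the threshold, 107 no longer passed, 8 newly passed, 26 moved and 14 changed sign, of which only Ly6a had passed. Ly6a went from 2.06 to −2.40 without BAMs of another gate and, with 1 library left out, ranged from −4.41 to 2.68, the first without library 1. Fcer1g, at −0.25, became 0.0702 in DESeq2, 0.0624 with library sizes alone, 0.0305 with at least 50 UMIs, 0.0424 in the pair alone and 0.25 with microglia of another gate kept. Jund, at 0.04, became −0.0192 without doublets, −0.33 without BAMs of another gate and −0.0033 after thinning. Pcna became −0.00085 with at least 4 rule markers and −0.25 without BAMs of another gate, and Tmem212 −1.12 without those BAMs and −1.79 with microglia of another gate kept. The causes were not tested. With 134 cells, levels near or under the floor of 3 UMIs are poorly determined.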
